A study of Homo sapiens with 6 samples.

Results

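The 51 genes described here encode the machinery that copies DNA in S phase, together with G1/S regulators that start it. They were taken by symbol from the 58870 rows of a table of gene counts, by a rule that uses no measured value, although earlier results of these data were known when the list was drawn up. All 51 were found, and all 51 were expressed highly enough to be tested. The counts came from HEK-293T cells, an immortalized line of human embryonic kidney origin. The 3 WT libraries carry intact THUMPD1, and the 3 THUMPD1 KO libraries come from a line derived from the WT cells with CRISPR-Cas9. THUMPD1 guides the acetyltransferase NAT10 to tRNA of Leu and Ser, where it acetylates a cytidine. Total RNA was isolated with Trizol from cells grown in DMEM, depleted of ribosomal RNA and sequenced in paired-end mode from stranded libraries. No treatment or time point was part of the design. The KO line passed through single-cell sorting, so changes fixed by that cloning and changes that follow the loss of THUMPD1 cannot be told apart. The labels do not say whether the 3 libraries of a genotype came from separate cultures, and p values therefore measure only the spread between these libraries.

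DNA replication starts at origins that are marked by the origin recognition complex, ORC. In G1, ORC and CDC6 bring CDT1 and the ring-shaped MCM2-7 helicase to the DNA, a step called licensing. In S phase, CDC45 and the GINS complex join the ring to form the active CMG helicase, the polymerases copy both strands, and PCNA, loaded by RFC, holds the polymerase on the template. Most of these genes are targets of E2F transcription factors, which RB-family proteins hold in check until the cell is committed to S phase. HEK-293T cells express the SV40 large T antigen, which binds RB-family proteins and p53, so the control of these genes in this line differs from that in normal cells.

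Total expected counts lay between 32225646 and 44099898 per library, and the lowest and the highest count of any member in any library were 708 and 18475. Counts were divided by the library's total to give counts-per-million values (CPM). THUMPD1, the targeted gene, had 77.3, 84.6 and 80.8 CPM in WT replicates 1, 2 and 3 and 10.2, 12.0 and 10.95 CPM in the KO libraries, so all 6 labels were borne out. Of 5 markers of HEK-293 cells (LIN28B, NEFM, NEFL, PAX2 and PAX8), 4 passed the expression filter and PAX8 lay near 0. Their summed level was 244 to 257 CPM in WT and 240 to 255 CPM in KO, although NEFM itself fell from 35.3 to 5.33 CPM. The 5 fibroblast markers summed to 15.9 to 20.9 CPM in WT and 13.1 to 18.9 CPM in KO, with COL1A2 and DCN under 0.1 CPM. All 5 blood cell markers were under 0.1 CPM in both genotypes.

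The comparison asked whether the replication program differed between THUMPD1 KO and WT cells. Of the 51 genes, 5 rose in THUMPD1 KO (ORC5, ORC6, GINS2, POLD3 and CCNE2) and 6 fell (MCM5, CDC45, E2F2, POLD1, PCNA and MCM6). The largest decrease was that of MCM5, to 69.7% of its WT level, and the largest increase that of CCNE2, to 128%. Without WT replicate 1, CCNE2 rose less than ORC6. The log2 fold changes (KO against WT) of the 51 genes ran from −0.55 to 0.37 with a median of −0.02. A gene was called where limma-voom, fitted over all 15088 tested genes, gave a Benjamini-Hochberg adjusted p under 0.05. The 11 called genes are 21.6% of the 51, while 26.7% of all tested genes were called (13.7% higher and 13% lower), so the share called among replication genes was not above that of the transcriptome. In bulk RNA, a smaller fraction of cells in S phase and less of these mRNAs per cell cannot be told apart.

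The changes were small beside those of other genes. The median size of the log2 fold change was 0.08 for the 51 genes and 0.13 for all tested genes. Their standard errors were also smaller, with a median of 0.051 (range 0.037 to 0.097) against 0.070 for all tested genes. The 51 genes had WT means of 21.0 to 430 CPM, while the tested genes go down to the filter of 1 CPM. Neither comparison was matched for expression level, and the part that level plays in these differences was not tested. The median coefficient of variation between libraries of a genotype was 3.90% in WT and 4.52% in KO. Of the 40 genes not called, 38 had a 95% interval of the change that lay within 1.2-fold in either direction, and the bound farthest from 0 was that of CDT1, at −0.40. For 17 of the 51 genes (33.3%), 10 higher and 7 lower, the values of the WT and KO libraries did not overlap, compared with 42.2% of all tested genes. These 17 comprise the 11 called genes and MCM4, GINS3, PRIM2, RRM2, TYMS and CDC25A.

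**Figure D1:**
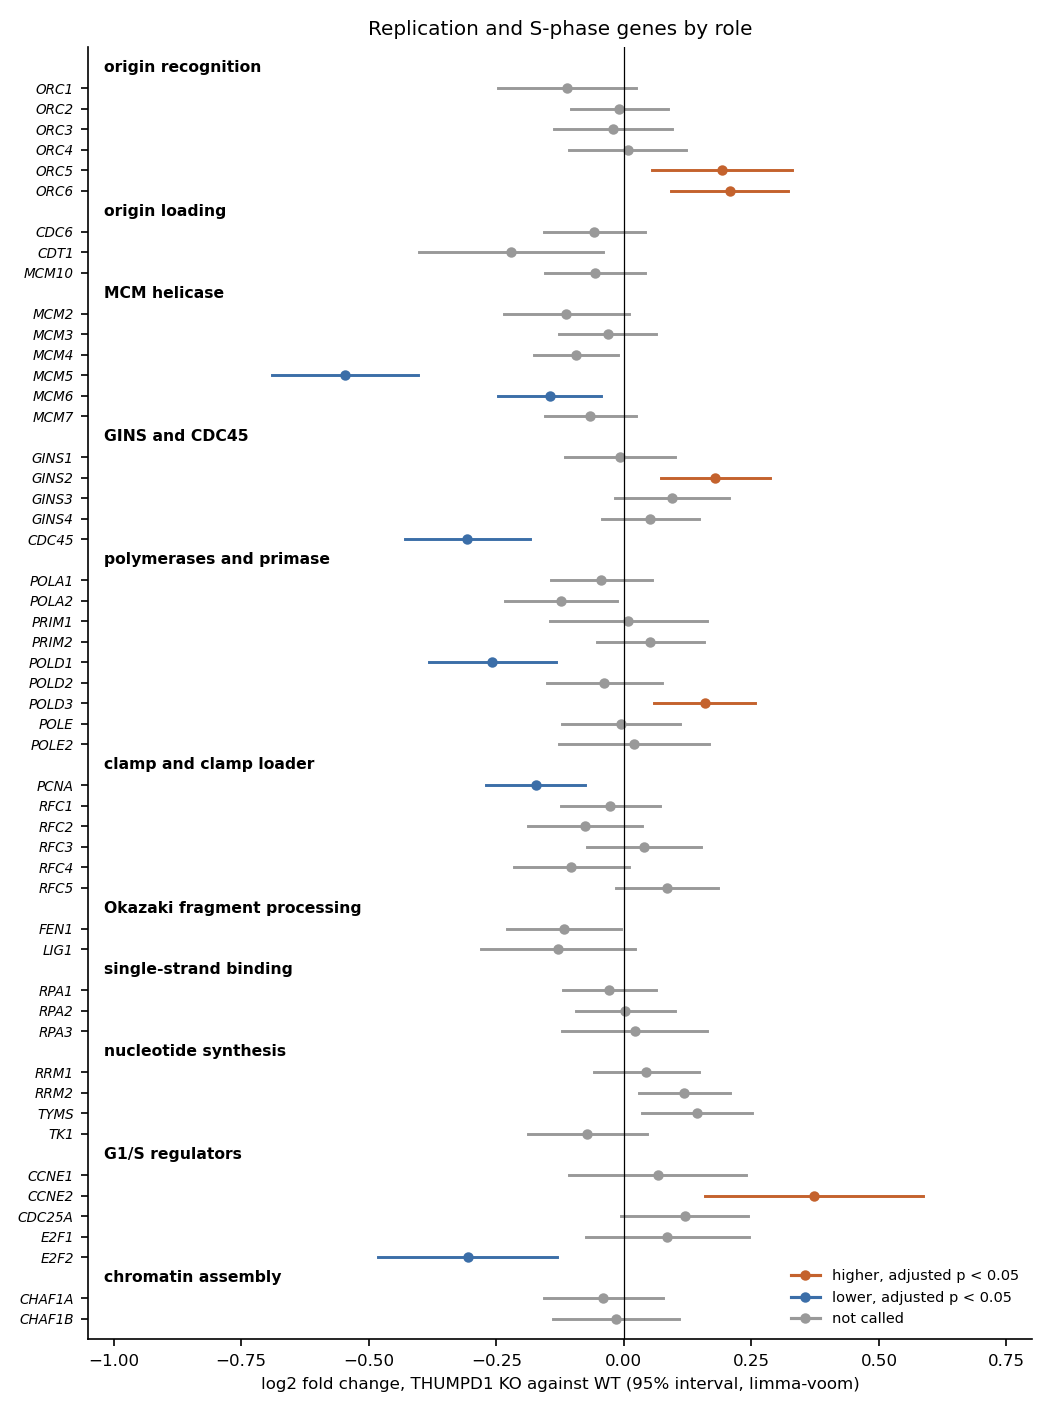
Log2 fold change of each of the 51 genes in THUMPD1 KO against WT (x axis) with its 95% interval from limma-voom, grouped by role (y axis); orange and blue mark genes called higher and lower. Most intervals lie close to 0, and MCM5 at −0.55 and CCNE2 at 0.37 stand farthest out.

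The number of calls depended on single libraries. It was 6 without WT replicate 3, 6 without KO replicate 2 and 4 without KO replicate 3, and at most 11 when any library was left out. The calls over all tested genes were also fewer in these fits, at 18.1%, 17.6% and 18.6%. The split into higher and lower genes depended on the scaling, with 5 higher and 6 lower after quantile normalization, 2 higher and 8 lower with TMM library sizes and 7 higher and 6 lower with library sizes alone. Over all tested genes the split moved the same way, from 2066 higher and 1959 lower to 1806 and 2091 with TMM library sizes and 2177 and 1731 with library sizes alone. With the replicate number as a block in the model, 16 of the 51 genes were called, where this fit called 35.1% of all tested genes, and the edgeR quasi-likelihood test called 12, against 25.7% of all tested genes. MCM5, CDC45 and POLD1 were called under all 18 alternative settings. Of these, MCM5 and CDC45 lie on chromosome 22, where 353 of 375 tested genes were lower in KO. None of the 11 called genes changed direction under any of the settings. Among the other genes, 20 changed sign under at least 1 setting, all of them uncalled and with a log2 fold change of at most 0.085 in size.

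The sequences upstream of some of these genes hold a shared element, shown here because it sits before called and uncalled genes alike. RefSeq promoters (GRCh38.p14, 250 bases before to 50 bases after the gene start) were found for 44 of the 51 genes and searched on both strands for the E2F-type letters TTTGGCGC, TTTCCCGC, TTTGCCGC and TTTCGCGC. A match was present in 21 of the 44 promoters (47.7%), compared with 908 of 27305 promoters of all genes (3.33%). It was present in 4 of 8 promoters of called genes and in 17 of 36 promoters of uncalled genes (47.2%). The 8 windows below lie upstream of the RefSeq gene start, which can differ from the end of the GENCODE coordinates given further on (the GENCODE span of GINS2 reaches farther upstream and covers its window), and are written 5′ to 3′ on the strand of the gene, with the matching letters in capitals. The first 3 belong to genes that fell, the fourth to a gene that rose, and the last 4 to genes that were not called.
E2F2, chr1:23531257-23531286, minus strand: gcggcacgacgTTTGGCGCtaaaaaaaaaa
MCM6, chr2:135876515-135876544, minus strand: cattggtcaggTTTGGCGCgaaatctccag
PCNA, chr20:5126663-5126692, minus strand: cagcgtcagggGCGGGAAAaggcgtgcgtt
GINS2, chr16:85688967-85688996, minus strand: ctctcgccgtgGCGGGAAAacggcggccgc
E2F1, chr20:33686387-33686416, minus strand: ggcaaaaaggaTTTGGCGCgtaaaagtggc
CDC25A, chr3:48188443-48188472, minus strand: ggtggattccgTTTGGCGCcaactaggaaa
TYMS, chr18:657603-657632, plus strand: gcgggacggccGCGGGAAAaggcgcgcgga
POLA1, chrX:24693770-24693799, plus strand: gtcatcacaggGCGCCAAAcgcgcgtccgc
The letters GCGGGAAA and GCGCCAAA are the reverse complements of TTTCCCGC and TTTGGCGC. The same 8 letters thus precede E2F2 and MCM6, which fell, and E2F1 and CDC25A, which were not called. Matches on the 2 strands may overlap, and a match is a description of the letters and not a mapped binding site. The CCAAT letters, searched in the same way, were present in 25 of the 44 promoters (56.8%) and in 35.7% of all promoters.

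Origin recognition comprises ORC1 to ORC6, whose products bind origins as a complex. The WT means of these 6 genes lay between 34.7 and 98.4 CPM, and 2 of them rose in KO. ORC6 (ENSG00000091651.9, chr16:46689643-46698394, plus strand), the least conserved subunit of the complex, had 64.9, 59.0 and 56.6 CPM in WT and 69.5, 68.5 and 70.3 CPM in KO. Every KO library lay above every WT library, with the KO values close together. The means were 60.2 ± 4.24 and 69.4 ± 0.891 CPM (SD, n = 3 each), a log2 fold change of 0.21 (SE 0.052, limma-voom adjusted p = 0.0135). The call was lost without WT replicate 3 (adjusted p = 0.0686) or KO replicate 3 (adjusted p = 0.0530).

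ORC5 (ENSG00000164815.11, chr7:104126341-104208047, minus strand), an ATP-binding subunit, had 33.1, 36.6 and 34.5 CPM in WT and 38.3, 41.5 and 38.5 CPM in KO. The groups did not overlap, but the lowest KO library was close to the highest WT library. It rose from 34.7 ± 1.80 CPM in WT to 39.4 ± 1.79 CPM in KO (mean ± SD, n = 3 each), a log2 fold change of 0.19 (SE 0.062, limma-voom adjusted p = 0.0423). This call held in only 9 of 18 alternatives. It failed without WT replicate 1 (0.0893), WT replicate 3 (0.104), KO replicate 2 (0.173) or KO replicate 3 (0.0782), with TMM library sizes (0.0831), without a CPM filter (0.101), and with edgeR (adjusted p = 0.0869) or DESeq2 (adjusted p = 0.105). With the GC and length trends removed the log2 fold change was 0.13 (0.0990). ORC1, the subunit whose level rises and falls with the cell cycle in human cells, had a log2 fold change of −0.11 (limma-voom adjusted p = 0.207) and was not called. ORC2, ORC3 and ORC4 were not called either.

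Origin loading was represented by CDC6, CDT1 and MCM10, with WT means of 116 to 128 CPM, and none of the 3 was called. CDT1, which carries the MCM ring to the origin and is destroyed once S phase begins, had 130.7, 103 and 116 CPM in WT and 105.5, 92.3 and 105.7 CPM in KO. KO replicates 1 and 3 lay inside the WT range, because WT replicate 2 was low. This gave a log2 fold change of −0.22 (SE 0.082, limma-voom adjusted p = 0.0680), with a 95% interval from −0.40 to −0.04. With the replicate block the adjusted p was 0.00425, with edgeR 0.0435 and with DESeq2 0.0135, and without WT replicate 2 limma-voom gave 0.0106. The estimate shrank to −0.12 with the GC and length trends removed (adjusted p = 0.240, with the block 0.0740) and to −0.13 without WT replicate 1 (0.163), so both the call and the size turned on the model and on these libraries. CDC6, the ATPase that works with CDT1, and MCM10, which helps to activate the helicase, each had a log2 fold change of −0.06. CDT1 per transcript length was 1.36, 0.865 and 0.991 times its inhibitor GMNN (geminin) in WT and 0.931, 0.794 and 0.938 times in KO. These ratios overlapped, with WT replicate 1 the highest of the 6 libraries.

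The MCM helicase genes were among the most abundant of the 51, with WT means of 195 to 430 CPM. All 6 had a log2 fold change below 0, with a median of −0.10, where 7003 of the 15088 tested genes were lower. The sign of MCM3 changed without WT replicate 1. Of the 6 genes, 2 fell by the test. MCM5 (ENSG00000100297.16, chr22:35400134-35425431, plus strand) had 205.9, 186 and 193 CPM in WT and 150, 127 and 131 CPM in KO. No KO library came near the WT range. The means were 195 ± 10.2 and 136 ± 12.4 CPM (SD, n = 3 each), a log2 fold change of −0.55 (SE 0.065, limma-voom adjusted p = 0.000206). With any library left out the estimate stayed between −0.63 and −0.50.

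MCM6 (ENSG00000076003.5, chr2:135839626-135876443, minus strand) had 236, 239.5 and 241.5 CPM in WT and 229.8, 217 and 206 CPM in KO. The WT libraries were nearly equal, and KO replicate 1 lay just below them. It fell from 239 ± 2.64 CPM in WT to 217.5 ± 11.8 CPM in KO (mean ± SD, n = 3 each), a log2 fold change of −0.15 (SE 0.046, limma-voom adjusted p = 0.0372). It was no longer called without WT replicate 2 (0.0935), WT replicate 3 (0.121), KO replicate 2 (0.106) or KO replicate 3 (0.139), and without a CPM filter (0.0545). MCM2 had a log2 fold change of −0.11 (limma-voom adjusted p = 0.157, with the replicate block 0.0290, and 0.117 with the GC and length trends also removed) and MCM4 one of −0.09 (limma-voom adjusted p = 0.0844). MCM3 and MCM7 had log2 fold changes of −0.03 and −0.07. With library sizes alone the values were −0.009 for MCM3, −0.042 for MCM4 and −0.028 for MCM7. Intronic miRNAs of the miR-106b cluster and the neighbouring gene AP4M1 share the MCM7 locus.

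The ring contains one copy of each of its subunits, so the levels of the 6 mRNAs were compared per transcript length (RPKM, the CPM per kilobase of exon). In WT the order was MCM7 (78.1), MCM3 (72.6), MCM2 (66.4), MCM6 (57.8), MCM4 (43.6) and MCM5 (26.8 ± 1.4, SD, n = 3). In KO the order was the same, with MCM7 at 76.6, MCM3 at 72.1, MCM2 at 62.0, MCM6 at 52.6, MCM4 at 42.4 and MCM5 at 18.7 ± 1.71 (SD, n = 3). MCM5, the least abundant of the 6 on this scale in both genotypes, was also the one that fell most. It made up 7.99%, 7.55% and 7.74% of the summed level in WT and 6.16%, 5.51% and 5.59% in KO. The mean share was 7.76% ± 0.222 (SD, n = 3) in WT and 5.75% ± 0.358 (SD, n = 3) in KO, without overlap. The lengths are those of all annotated exons joined, so the order between genes depends on the annotation, while the change within a gene does not.

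GINS and CDC45 complete the CMG helicase with the MCM ring, and of these 5 genes CDC45 fell and GINS2 rose. CDC45 (ENSG00000093009.9, chr22:19479457-19520612, plus strand) had 74.7, 66.3 and 67.0 CPM in WT and 58.9, 54.4 and 54.5 CPM in KO. All KO libraries lay below all WT libraries, and replicate 1 was the highest in each genotype. It fell from 69.3 ± 4.63 CPM in WT to 55.9 ± 2.59 CPM in KO (mean ± SD, n = 3 each), a log2 fold change of −0.31 (SE 0.056, limma-voom adjusted p = 0.00250). GINS2 (ENSG00000131153.9, chr16:85676198-85690073, minus strand) had 57.5, 61.4 and 60.4 CPM in WT and 69.9, 65.1 and 67.2 CPM in KO. Here the KO libraries lay above the WT libraries, KO replicate 1 most of all.

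GINS2 rose from 59.8 ± 1.98 CPM in WT to 67.4 ± 2.42 CPM in KO (mean ± SD, n = 3 each), a log2 fold change of 0.18 (SE 0.049, limma-voom adjusted p = 0.0197). Its call was lost without KO replicate 1 (0.0611) or KO replicate 3 (0.0577), with TMM library sizes (0.0507) and with DESeq2 (adjusted p = 0.0591). It was also lost without a CPM filter (0.0514) and without replicate 1 of both genotypes (0.0504, log2 fold change 0.12). GSE1 overlaps GINS2 on the opposite strand. No source says whether reads were counted by strand, so part of this count is of uncertain origin. The other GINS subunits were not called. GINS3 and GINS4 had log2 fold changes of 0.09 and 0.05, and GINS1 lay closer to 0.

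**Figure D2:**
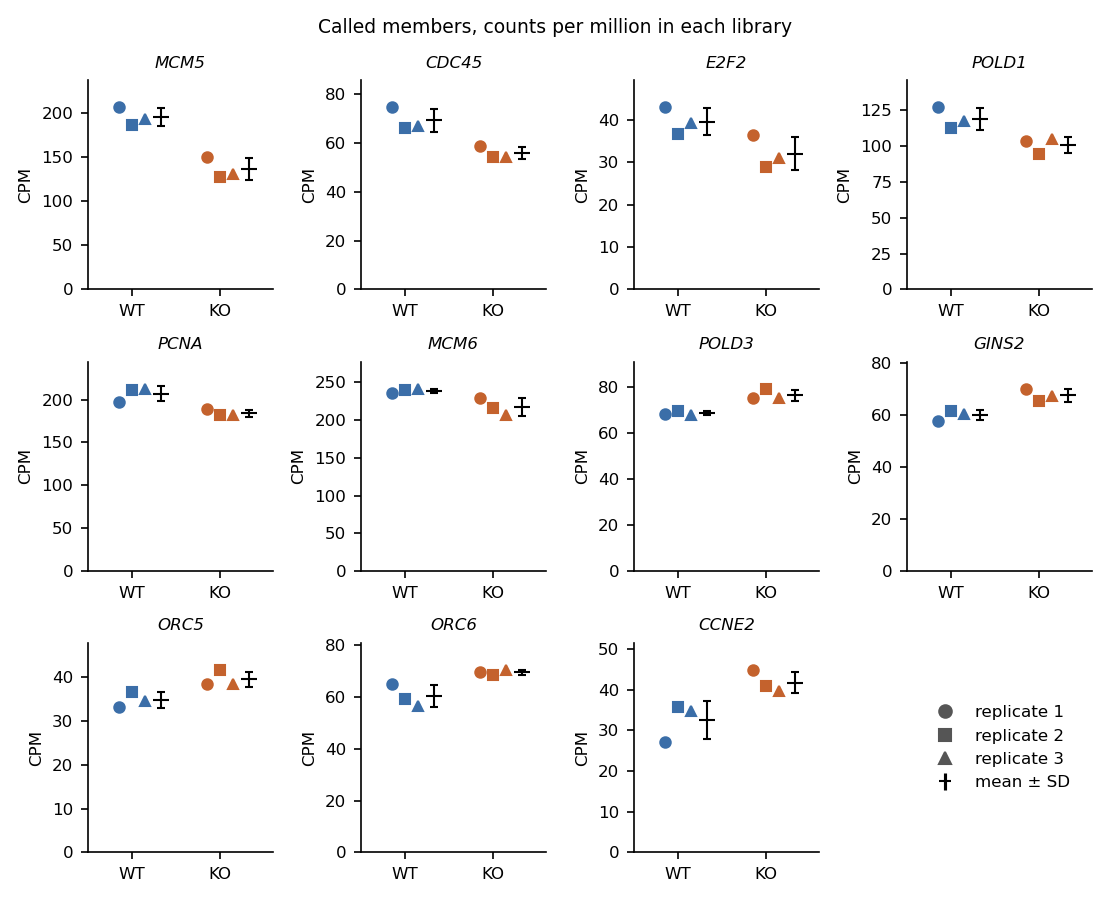
CPM (y axis, from 0) of the 11 called genes in each of the 3 WT and 3 KO libraries, with symbols for the replicate number and bars for the mean ± SD of each genotype. In every panel the KO points lie wholly above or wholly below the WT points, with the widest gap for MCM5 (mean 195 CPM in WT, 136 CPM in KO).

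Among the 9 polymerase and primase genes, 1 rose and 1 fell, and both belong to DNA polymerase delta. POLD1 (ENSG00000062822.13, chr19:50384204-50418018, plus strand), its catalytic subunit, had 127, 112.5 and 117 CPM in WT and 103, 94.5 and 104.7 CPM in KO. The groups were separate, with KO replicate 2 the lowest. It fell from 119 ± 7.42 CPM in WT to 100.9 ± 5.56 CPM in KO (mean ± SD, n = 3 each), a log2 fold change of −0.26 (SE 0.057, limma-voom adjusted p = 0.00718). With the GC and length trends removed, the log2 fold change of POLD1 shrank to −0.17 (limma-voom adjusted p = 0.0215). Another annotated gene, ENSG00000142539, covers part of the POLD1 locus on the same strand. POLD3 (ENSG00000077514.8, chr11:74493851-74669117, plus strand), an accessory subunit that binds PCNA, had 68.1, 69.4 and 67.8 CPM in WT and 74.9, 79.0 and 74.9 CPM in KO.

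All KO libraries were above all WT libraries for POLD3, and the WT libraries were tightly grouped. It rose from 68.4 ± 0.858 CPM in WT to 76.3 ± 2.37 CPM in KO (mean ± SD, n = 3 each), a log2 fold change of 0.16 (SE 0.045, limma-voom adjusted p = 0.0242). This call was lost without WT replicate 3 (0.0841), KO replicate 2 (0.104) or KO replicate 3 (0.0503), with TMM library sizes (0.0611), without a CPM filter (0.0561) and with DESeq2 (adjusted p = 0.0795). With the GC and length trends removed the log2 fold change was 0.10 (0.0849). POLA2, the second subunit of the polymerase alpha-primase complex that starts new strands, had a log2 fold change of −0.12 (limma-voom adjusted p = 0.0929, edgeR 0.0366). POLA1, PRIM1 and PRIM2 of the same complex, POLD2 of polymerase delta and POLE and POLE2 of the leading-strand polymerase epsilon were not called. PRIM2 was higher in each KO library than in any WT library but did not pass the test.

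The sliding clamp PCNA (ENSG00000132646.11, chr20:5114953-5126626, minus strand) had 197, 210.8 and 213 CPM in WT and 189, 182 and 182 CPM in KO. KO replicate 1 and WT replicate 1 were the nearest of the libraries, and the groups did not overlap. It fell from 207 ± 8.43 CPM in WT to 184 ± 4.02 CPM in KO (mean ± SD, n = 3 each), a log2 fold change of −0.17 (SE 0.044, limma-voom adjusted p = 0.0148). PCNA was no longer called without WT replicate 2 (0.0542), WT replicate 3 (0.0743), KO replicate 2 (0.0611) or KO replicate 3 (0.0564). PCNA per transcript length was 5.46, 6.59 and 6.37 times POLD1 in WT and 6.42, 6.76 and 6.11 times in KO. Both mRNAs fell, and the ratio of the clamp to the catalytic subunit that it holds overlapped between genotypes. None of the 5 RFC genes, whose products load PCNA onto DNA, was called. RFC2, RFC4 and RFC5 had log2 fold changes of −0.08, −0.10 and 0.08, and RFC1 and RFC3 lay closer to 0.

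FEN1 and LIG1 trim and join Okazaki fragments on the lagging strand, and neither was called. FEN1, the flap endonuclease, had 129.6, 147 and 142.5 CPM in WT and 134, 132 and 128.5 CPM in KO. WT replicate 1 was low and lay within the range of KO, so the groups overlapped. The log2 fold change was −0.12 (95% interval −0.23 to −0.01, limma-voom adjusted p = 0.108). Without WT replicate 1 the adjusted p was 0.0124, and with sample quality weights on all libraries it was 0.0070. Whether FEN1 was called thus turned on that library and on the model. LIG1, the ligase, had a log2 fold change of −0.13 (limma-voom adjusted p = 0.186). With the replicate block the adjusted p was 0.0389, with the GC and length trends removed as well it was 0.147, and without WT replicate 1 the log2 fold change was −0.05.

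The RPA complex, which coats single-stranded DNA at the fork, was the group nearest to no change. RPA1, its largest subunit, had 151, 156 and 156.5 CPM in WT and 148, 154 and 157 CPM in KO, with almost the same range in both genotypes. Its log2 fold change was −0.03 (95% interval −0.12 to 0.06, limma-voom adjusted p = 0.643). RPA2 and RPA3 lay still closer to 0.

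Nucleotide synthesis was represented by both subunits of ribonucleotide reductase (RRM1 and RRM2), thymidylate synthase (TYMS) and thymidine kinase (TK1). None of the 4 was called by limma-voom with genotype as the only term. RRM2, the subunit made in S phase, had 238, 247.5 and 248 CPM in WT and 275, 263 and 267 CPM in KO. Every KO library was above every WT library, with means of 244.6 ± 5.54 and 268.5 ± 6.16 CPM (SD, n = 3 each). This gave a log2 fold change of 0.12 (SE 0.041, limma-voom adjusted p = 0.0517), and the adjusted p was 0.0386 with the replicate block, 0.0296 with library sizes alone and 0.129 with the GC and length trends removed. TYMS had 102, 107 and 106.6 CPM in WT and 124, 111 and 118 CPM in KO, also without overlap. Its log2 fold change was 0.14 (limma-voom adjusted p = 0.0524), and 6 of 18 alternatives called it, among them the replicate block (0.0370) and library sizes alone (0.0345). ENOSF1 and TYMSOS share the TYMS locus. RRM2 per transcript length was 3.44, 3.74 and 3.47 times RRM2B, the subunit that p53 induces outside S phase, in WT and 3.63, 3.72 and 3.93 times in KO, with overlap.

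Of the 5 G1/S regulators, 1 rose and 1 fell. CCNE2 (ENSG00000175305.17, chromosome 8), a cyclin E that activates CDK2 at the start of S phase, had 27.3, 35.6 and 34.8 CPM in WT and 44.8, 40.9 and 39.6 CPM in KO. The groups did not overlap, and WT replicate 1 and KO replicate 1 were the farthest apart of all 6 libraries. It rose from 32.6 ± 4.62 CPM in WT to 41.7 ± 2.67 CPM in KO (mean ± SD, n = 3 each), a log2 fold change of 0.37 (SE 0.097, limma-voom adjusted p = 0.0161). Without KO replicate 1 the adjusted p was 0.0610, without KO replicate 2 it was 0.0528, and without a CPM filter it was 0.050001. Leaving out each library in turn gave estimates between 0.23 and 0.45. Without WT replicate 1 the log2 fold change of CCNE2 was 0.234 and that of ORC6 was 0.258. Without replicate 1 of both genotypes the values were 0.195 for CCNE2 and 0.262 for ORC6. INTS8, NDUFAF6 and other genes overlap CCNE2 on the opposite strand. CCNE1, the paralog, was not called. CCNE1 per transcript length was 1.27, 1.10 and 1.11 times CCNE2 in WT and 0.933, 0.873 and 0.991 times in KO. The ratio was thus lower in every KO library than in any WT library (mean 1.16 in WT and 0.932 in KO). Which paralog is the more abundant depends on the annotated exon lengths, while the change of the ratio does not. A two-sided exact permutation test of 3 against 3 libraries cannot go below p = 0.1, and these ratios were not tested further.

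E2F2 (ENSG00000007968.7, chr1:23506438-23531233, minus strand), an activating E2F transcription factor, had 43.0, 36.6 and 39.3 CPM in WT and 36.4, 28.9 and 31.0 CPM in KO. The highest KO library, replicate 1, lay just under the lowest WT library, replicate 2. It fell from 39.7 ± 3.22 CPM in WT to 32.1 ± 3.88 CPM in KO (mean ± SD, n = 3 each), a log2 fold change of −0.31 (SE 0.080, limma-voom adjusted p = 0.0160). It was no longer called without KO replicate 2 (0.0848) or KO replicate 3 (0.0649). E2F1, a related activator, had 59.99, 55.9 and 55.8 CPM in WT and 69.3, 55.6 and 57.4 CPM in KO. KO replicate 1 alone stood above the other libraries, and the log2 fold change was 0.08 (limma-voom adjusted p = 0.416). CDC25A, the phosphatase that activates CDK2, had 162, 188 and 185.5 CPM in WT and 197, 191.5 and 197 CPM in KO. Its groups did not overlap, but WT replicate 1 was low, and the log2 fold change of 0.12 was not called (limma-voom adjusted p = 0.142).

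Chromatin assembly factor 1 places histones behind the fork, and neither of its subunits CHAF1A and CHAF1B was called. CHAF1A had 135, 122 and 125.6 CPM in WT and 131, 119 and 130.1 CPM in KO, with overlapping groups. Its log2 fold change was −0.04 (95% interval −0.16 to 0.08, limma-voom adjusted p = 0.617).

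**Figure D3:**
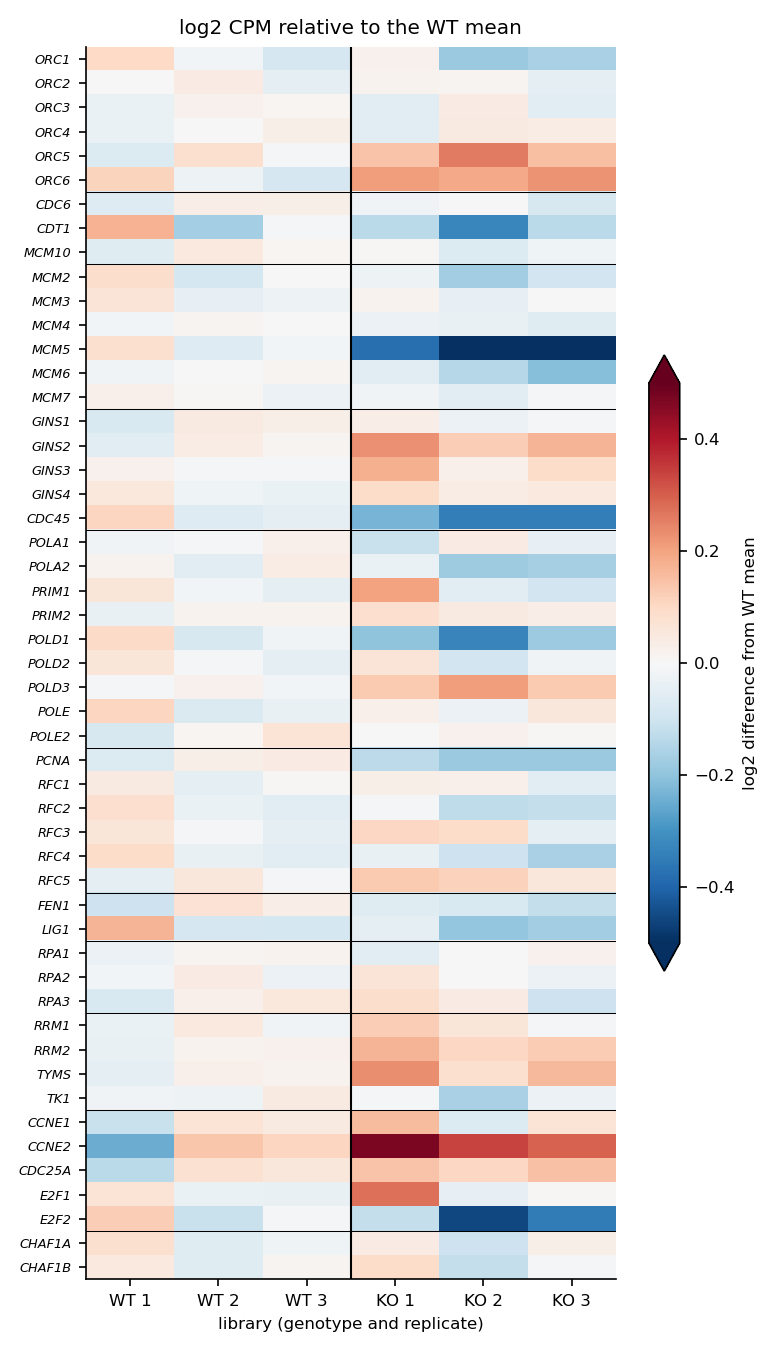
Difference of log2 CPM from the WT mean for each gene (rows, divided by role) in each library (columns), red above and blue below the WT mean; the colours saturate for MCM5 in KO replicates 2 and 3. MCM5 is the bluest and CCNE2 the reddest row in each KO library, and many other rows keep a paler colour across the 3 KO libraries. KO replicate 1 is often redder than KO replicates 2 and 3.

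Libraries also differed within a genotype. KO replicate 1 had the highest of the 3 KO values for 37 of the 51 genes. The median difference of log2 CPM from the WT mean over the 51 genes was 0.021 in KO replicate 1, −0.030 in KO replicate 2 and −0.021 in KO replicate 3. WT replicate 1 was the highest of its genotype for 23 genes and the lowest for 23 others. For 18 genes, among them MCM5, CDC45, LIG1 and E2F2, replicate 1 was the highest of both genotypes. Without replicate 1 of both genotypes 13 of the 51 genes were called, 4 higher and 9 lower, where 32.4% of all tested genes were called. The part that this library difference plays in the calls of single genes was otherwise not tested.

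The called genes were next set beside their neighbours on the chromosome, since 353 of 375 tested genes of chromosome 22 were lower in KO, with a median log2 fold change of −0.34. MCM5 and CDC45 are the members on this chromosome. For each gene, the median was taken over the 10 tested genes on each side that are not members. This median was −0.40 around MCM5 and −0.32 around CDC45, with 19 of 20 neighbours lower in both cases. CDC45 differed from its neighbourhood by 0.02, and 56.3% of the tested genes of chromosome 22 had a lower log2 fold change than it. MCM5 lay below its neighbourhood by a difference of −0.14, and 16.5% of the genes of the chromosome had a lower log2 fold change. Around the remaining 49 genes the neighbourhood medians ran from −0.19 (PRIM1) to 0.15 (CDT1). The other 9 called genes differed from their neighbourhoods by −0.29 to 0.27. Outside chromosome 22, 9 of 49 genes were called (18.4%, against 26.7% of all tested genes), 5 higher and 4 lower. Whether the level of MCM5 and CDC45 follows that of the chromosome was not tested.

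**Figure D4:**
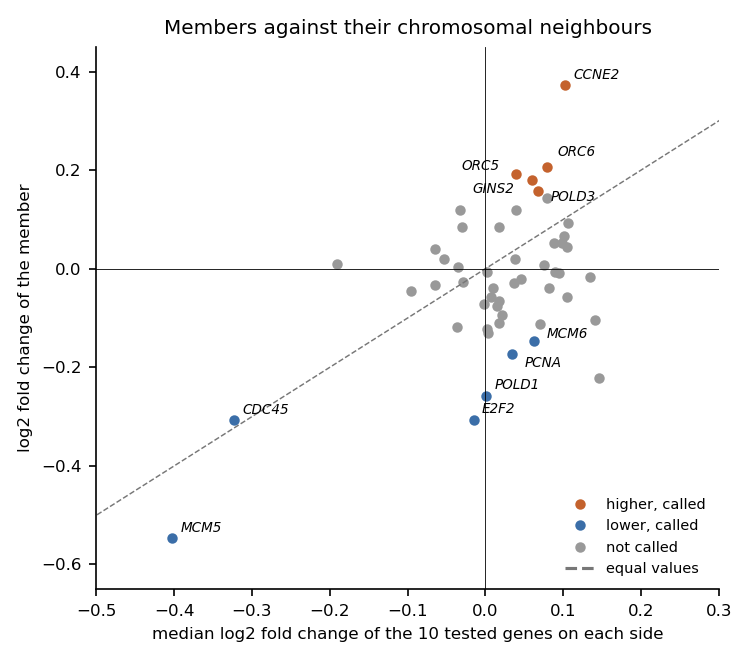
Log2 fold change of each of the 51 genes (y axis) against the median log2 fold change of the 10 tested genes on each side (x axis), coloured by call, with a dashed line where both are equal. MCM5 and CDC45 lie apart at neighbourhood medians of −0.40 and −0.32, and CDC45 falls on the line.

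A wider list of 87 other S-phase genes had 18 genes called (20.7%, against 26.7% of all tested genes), 9 higher and 9 lower, with a median log2 fold change of 0.02. By role, the calls included 2 of 12 genes of licensing control, 4 of 17 of the replisome and fork, 5 of 27 of the G1/S switch, 3 of 11 of chromatin and DNA methylation at the fork and 3 of 11 of the replication checkpoint. CDKN1A, which encodes the CDK inhibitor p21, a protein that also binds PCNA, changed most. It had 7.26, 7.30 and 8.42 CPM in WT and 17.4, 15.0 and 16.9 CPM in KO, so that every KO library was far above WT. This gave a log2 fold change of 1.10 (SE 0.093, limma-voom adjusted p = 2.34e-05).

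Other members of the wider list that rose included TOP2A, the topoisomerase that untangles sister DNA (log2 fold change 0.19, limma-voom adjusted p = 0.00443, edgeR 0.0522), and the chromatin remodeler HELLS (0.18, limma-voom 0.00622). Of the 9 that fell, the 4 with the smallest adjusted p were CHTF18, a subunit of an alternative PCNA loader, from 83.7 to 52.7 CPM (−0.68, limma-voom 2.34e-05), CCND2, a D-type cyclin, from 199 to 149 CPM (−0.43, limma-voom 9.07e-05), the fork protein TIMELESS (−0.25, limma-voom 0.00596) and USP1, which removes ubiquitin from PCNA (−0.15, limma-voom 0.0145). CHTF18 lies among lower genes of chromosome 16, with a neighbourhood median of −0.42. USP1 was no longer called without WT replicate 2 (0.0532), WT replicate 3 (0.0656) or KO replicate 3 (0.0624). Of the 87 genes, 9 were called without WT replicate 3 and 10 without either KO replicate 2 or KO replicate 3. The shares of all tested genes called in these fits were 18.1%, 17.6% and 18.6%.

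Genes of G2 and mitosis, the phase that follows, were counted for comparison. Of 36 such genes 11 were called (30.6%), all of them higher in KO, with a median log2 fold change of 0.12, where 26.7% of all tested genes were called and 13.7% were called higher. A log2 fold change above 0 was seen for 31 of the 36 genes, against 21 of the 51 replication genes, 50 of the 87 other S-phase genes and 8085 of the 15088 tested genes. The called genes with the smallest adjusted p were BIRC5 (survivin), with a log2 fold change of 0.27 (limma-voom adjusted p = 0.00126), the mitotic kinase AURKA with 0.28 (limma-voom 0.00402) and the spindle checkpoint gene BUB3 with 0.20 (limma-voom 0.00418). Counts over lists were not tested against each other. The number called in this list was 7 without WT replicate 3, 6 without KO replicate 2 and 7 without KO replicate 3. These fits called 18.1%, 17.6% and 18.6% of all tested genes.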

How the data were processed

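The authors used STAR for alignment to GRCh38 (hg38) and RSEM for gene counts. The versions of both are not given in the sources used here. The deposited table holds expected counts per gene and library, unscaled. Total counts of the 6 libraries (3 WT, 3 THUMPD1 KO) were 32225646 to 44099898, which limits the precision of low genes. Names and positions came from GENCODE 44, in which 58517 of 58870 rows were found (the methods name release 46). The 51 members and all lists were chosen with earlier results of these data known.

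The filter kept 15088 genes that reached 1 CPM in 3 or more libraries (at least 99.7% of counts). Following the study's methods, limma-voom (limma 3.58.1, R 4.3.3) was run with quantile normalization, genotype being the only term. Tests were two-sided, with Benjamini-Hochberg adjustment over all tested genes and a threshold of 0.05. CPM values use the deposited counts and totals, so they can differ from fitted changes. For MCM4 the log2 fold change was −0.095 in the main fit and −0.042 with library sizes alone. The fit was tested on simulated data. Libraries of a genotype differed beyond counting noise (chi-square per degree of freedom 3.60 to 14.1), so none repeated another.

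The genotypes share replicate numbers, and the labels do not say what a number marks. Deviations from the genotype means correlated at 0.171, 0.147 and 0.139 for libraries with the same number and at −0.140 to 0.019 for different numbers, over genes. Over the 51 genes alone, the values were 0.307, 0.508 and 0.104 for the same number and −0.414 to 0.144 for different numbers. The value for replicate 3 thus lay within the range of different numbers. Because all same-number values exceeded 0.1, a block on the number was fitted as an alternative, while the main fit kept genotype as the only term.

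The other alternatives were TMM library sizes, library sizes alone, 3 other CPM filters, sample quality weights, removal of trends along GC content and length (natural splines, 5 degrees of freedom) with and without the block, each library left out in turn, edgeR 4.0.16 (quasi-likelihood) and DESeq2 1.42.0 on rounded counts, and, where genes were counted, a stricter adjusted p of 0.01. Omission of replicate 1 of both genotypes was added after seeing the data.

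Values in every library were given for called members and, in each role without a call, for the member with the smallest adjusted p. At most 8 called genes of the wider list and 3 of the G2/M list were named by smallest adjusted p, besides THUMPD1 and the genes of the ratios. A gene that this rule names is not reported here. Other members were named after their values were seen. Promoter sequences came from RefSeq.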

Additional observations from a re-analysis of the deposited data

How the results depend on the processing

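Of 198 refits of the 11 called genes, 160 left the call in place, 38 lost it and 0 changed its direction. Of 396 refits of the 22 uncalled replication genes whose log2 fold change is printed, 31 brought a call. The number of the 51 genes called was 7 without a CPM filter (1 higher, 6 lower), where 10.1% of all genes in that fit were called. It was 3 at an adjusted p under 0.01 (0 higher, 3 lower), namely MCM5, CDC45 and POLD1. The share of all tested genes under 0.01 was not counted, so no direction is read from this number. MCM5 and CDC45 lie on chromosome 22, where 353 of 375 tested genes were lower. With each library left out in turn the number of the 51 genes called was 4 to 11, where 17.6% to 28.1% of all tested genes were called. With edgeR it was 12 (4 higher, 8 lower) and with DESeq2 9 (2 higher, 7 lower), where these called 25.7% and 24.3% of all tested genes. Of the wider list 31 genes were called with sample quality weights, a fit that called 36.5% of all tested genes, and 9 to 21 with each library left out. Of the G2/M list 7 were called without a CPM filter, 7 with edgeR and 6 to 12 with each library left out. Without replicate 1 of both genotypes it was 17, where 32.4% of all tested genes were called. Over all tested genes, leaving out each library gave 2663 to 4245 calls, the fewest without KO replicate 2.

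With the replicate block, 16 of the 51 genes were called (7 higher, 9 lower, where 35.1% of all tested genes were called), adding CDT1, MCM2, LIG1, RRM2 and TYMS, and removing none. The block called 29 genes of the wider list and 19 of the G2/M list. With the block and the GC and length trends removed, 37.8% of all tested genes were called. In that fit these numbers were 15, 30 and 17, and 2 of the 17 G2/M genes were lower. Of the 5 added genes only TYMS stayed called in that fit, and MCM4 (adjusted p = 0.0326), RFC4 (0.0167) and E2F1 (0.0159, log2 fold change 0.16) were called as well.

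Signs changed only for genes near 0. The log2 fold change of CHAF1A was 0.0040 with the GC and length trends removed (0.0044 with the block) and −0.072 to 0.0053 with libraries left out. For GMNN it was −0.0086 (−0.010 with the block), −0.034 with sample quality weights, −0.056 without replicate 1 of both genotypes and −0.064 to 0.10 with libraries left out. For RRM2B it was −0.014 (−0.012 with the block). With libraries left out it was −0.051 to 0.00084 for MCM3 and −0.0098 to 0.146 for E2F1. The causes were not tested.

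For 38 of the 40 uncalled genes the 95% interval lay within 1.2-fold, which leaves room for smaller changes. It is not known whether counting used strand, so genes that overlap others carry counts of uncertain origin. RNA levels give neither protein levels nor the share of cells in S phase.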
